A study of Mus musculus with 16 samples.

Results

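The effect of cardiomyocyte ERα loss in male hearts was read from the arrays of 4 cs-ERα-/- and 4 WT males, 8 of the 16 arrays of the study. Sex and genotype in the labels chose them, and the 8 arrays of females enter only where the sexes are set side by side. The cs-ERα-/- mice carry an Esr1 gene with loxP sites around exon 3 and a Cre recombinase driven by the α-MHC promoter, which is active in cardiomyocytes. The WT mice carry the floxed gene without Cre (ERα flox/flox). All were untreated C57BL/6 males aged 18 weeks, and RNA of pulverized heart tissue of each mouse was run on 1 Illumina MouseRef-8 array. The study names no WT mice with Cre, so Cre and the loss of ERα cannot be told apart. The other cells of the heart keep the receptor, and its loss can be seen in these arrays only in whole-tissue RNA.

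ERα, the product of Esr1, is a transcription factor that binds estradiol, pairs with itself and binds estrogen response elements in DNA, recruiting coactivators or corepressors to nearby genes. It can also act through other DNA-bound factors and from the cell membrane. In the heart it is found at low levels in cardiomyocytes, fibroblasts and vascular cells of both sexes, and in males estradiol is made from testosterone by aromatase.

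Male cs-ERα-/- arrays had 11882 to 12203 detected probes and a median deposited signal of 17.2 to 22.8, against 11492 to 11956 probes and 17.9 to 22.7 in WT. Levels are given as log2 signals after background correction and quantile normalization, a scale on which the median of all probes is 5.23 and the brightest reach 15.76. Both Esr1 probes were detected on 0 of 8 arrays, at 4.49 to 4.96 in cs-ERα-/- and 4.53 to 4.96 in WT, so they cannot check the deletion. The 3 probes of Esr2, the gene of ERβ, were also detected on 0 of 8. Eif2s3y, on the Y chromosome, was detected on 8 of 8 arrays and Xist, which silences one X chromosome of females, on 0 of 8, as the label male requires. Myh6, whose promoter drives Cre, differed by 0.06 at the dimmer of its probes (standard error 0.13, adjusted p = 0.887 from limma), and its other probe lies near the top of the scale. Pairs of arrays correlated at 0.991 to 0.994 over the probes tested.

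Of 25697 probes, 11868 were detected on at least 3 arrays of a genotype and were tested, for 8361 named genes. A probe was called at an adjusted p under 0.05 over all probes tested (limma, moderated by level, Benjamini-Hochberg). In cs-ERα-/- hearts 126 probes (1.06%) differed from WT, 77 higher (0.649%) and 49 lower (0.413%). They stood for 108 genes (1.29% of genes tested), 66 higher and 42 lower, and 6 probes that carry no gene name here. Most differences were small. The median size was 0.52 on the log2 scale, 72 of the 126 were under 1.5-fold, and 8 probes were over 2-fold higher and 2 over 2-fold lower. The first principal component, with 23.3% of the variance over all probes tested, set the 4 cs-ERα-/- mice (4.77 to 10.79) apart from the 4 WT mice (-11.73 to -5.61). The values of the genotypes did not overlap in 122 of the called probes, which being called itself favours, against 832 (7.01%) of all probes tested. Without adjustment, 1423 probes (12%) had a p under 0.05. By their brightest probe, 560 of the 8361 genes were higher and 498 lower at an unadjusted p under 0.05.

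**Figure D1:**
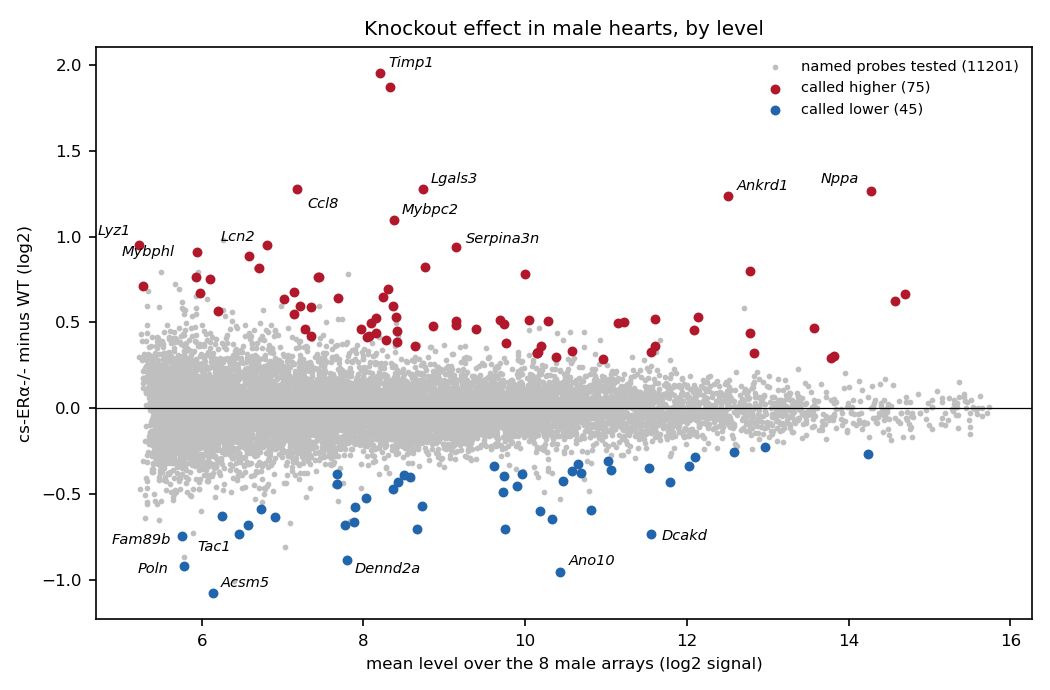
Each point is 1 named probe tested in male hearts, with its mean log2 signal over the 8 arrays on the horizontal axis and the difference of cs-ERα-/- minus WT (log2) on the vertical axis. Red points are the 75 named probes called higher and blue points the 45 called lower. Timp1 stands highest at 1.87 and 1.95, and Acsm5 lowest at -1.07.

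The count of calls rests on all 8 mice. It was 49 without WT mouse 2, 73 without WT mouse 4, 68 without cs-ERα-/- mouse 1 and 70 without cs-ERα-/- mouse 2, and 89 to 111 when another mouse was left out. In all 8 such fits 43 of the 126 probes were called. The call also leans on the moderation of variances: 39 probes passed without its dependence on level, and 7 with an ordinary linear model of the 8 arrays. Genes with at least 1 probe whose call held with each mouse left out, in each other processing tried and in the model of all 16 arrays, but for the ordinary model of 8 arrays, were Ankrd1, Jpt1, Lgals3, Lyz2, Mybpc2, Phlda3, Rpp25, Slc51a and Timp1, which were higher, and Ano10, Ctnna3, Dcakd, Dennd2a, Exoc2, Ttll1 and Ung, which were lower.

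The promoters of the genes with the largest changes are shown because ERα acts at DNA. Each is the 300-base window of RefSeq for GRCm38.p6, 5′ to 3′ on the strand of the gene. It reaches 250 bases before the annotated gene start in Timp1 and Lgals3, 116 bases before it in Acsm5 and 229 in Ano10. Capitals mark an arm of the estrogen response element (GGTCA or its reverse complement TGACC).
Timp1, chrX:20869916-20870215, plus strand: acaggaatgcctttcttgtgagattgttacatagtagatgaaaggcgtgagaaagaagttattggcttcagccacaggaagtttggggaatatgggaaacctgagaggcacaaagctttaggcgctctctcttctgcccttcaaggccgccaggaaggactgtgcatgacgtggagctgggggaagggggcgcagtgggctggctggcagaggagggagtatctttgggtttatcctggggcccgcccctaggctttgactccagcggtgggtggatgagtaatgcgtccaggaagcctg
Lgals3, chr14:47373610-47373909, plus strand: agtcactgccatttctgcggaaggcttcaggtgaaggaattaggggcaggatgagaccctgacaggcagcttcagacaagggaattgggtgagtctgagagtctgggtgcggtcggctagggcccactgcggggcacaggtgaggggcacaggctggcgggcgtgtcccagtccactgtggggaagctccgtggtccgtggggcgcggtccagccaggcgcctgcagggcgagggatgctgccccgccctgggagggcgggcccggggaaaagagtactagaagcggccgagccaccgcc
Acsm5, chr7:119526015-119526314, plus strand: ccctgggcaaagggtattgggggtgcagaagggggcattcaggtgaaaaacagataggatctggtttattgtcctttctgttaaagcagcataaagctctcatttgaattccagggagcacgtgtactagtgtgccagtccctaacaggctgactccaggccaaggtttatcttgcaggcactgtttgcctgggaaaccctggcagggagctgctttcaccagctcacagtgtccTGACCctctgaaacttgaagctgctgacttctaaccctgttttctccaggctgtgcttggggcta
Ano10, chr9:122294374-122294673, minus strand: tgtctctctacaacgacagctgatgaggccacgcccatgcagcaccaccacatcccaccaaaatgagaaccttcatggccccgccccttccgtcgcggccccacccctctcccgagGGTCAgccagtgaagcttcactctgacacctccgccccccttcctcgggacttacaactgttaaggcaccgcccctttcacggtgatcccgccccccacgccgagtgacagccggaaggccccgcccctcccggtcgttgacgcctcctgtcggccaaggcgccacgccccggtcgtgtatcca
The windows of Timp1 and Lgals3, both higher in cs-ERα-/- hearts, held no arm, and those of Acsm5 and Ano10, both lower, held 1 each. Of the 108 called genes, 84 had such a window. The whole element (GGTCA, any 3 bases, TGACC, on either strand) was in 0 of the 84, in 0 of the 6807 windows of genes tested and in 23 of 32851 windows of the whole table (0.07%). An arm was in 28 of the 84 (33.3%), in 34.6% of genes called higher and in 31.2% of those called lower, against 43.1% of genes tested and 40.5% of all windows. A match to these letters is no evidence of binding, and its absence says nothing of sites elsewhere.

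The largest rises joined matrix and inflammatory genes with genes listed here as cardiomyocyte stress genes, in RNA of whole heart tissue. Timp1, an inhibitor of matrix metalloproteinases, had log2 signals of 8.96, 8.75, 9.99 and 9.36 in cs-ERα-/- mice 1 to 4, against 7.0, 7.62, 7.58 and 7.39 in WT mice 1 to 4. It was 3.65-fold higher (log2 difference 1.87, standard error 0.20, adjusted p = 8.43e-05 from limma), and its second probe gave 1.95. At the first probe every knockout mouse lay more than 1 log2 unit above the highest WT mouse, and mouse 3 was the highest. Lgals3, which encodes galectin-3, a lectin of macrophages, was at 9.17, 9.04, 9.78 and 9.49 in cs-ERα-/- and at 8.16, 8.04, 8.12 and 8.05 in WT hearts. Its WT values were nearly level (SD 0.06), and the 2.42-fold rise (standard error 0.12 on the log2 scale, adjusted p = 2.26e-05) again was largest in mouse 3. Ccl8, a chemokine that attracts monocytes, was at 7.91, 7.11, 8.41 and 7.82 in cs-ERα-/- hearts, against 7.52, 6.36, 6.33 and 5.94 in WT hearts. Here the genotypes overlapped, since WT mouse 1 lay above cs-ERα-/- mouse 2, and the call (log2 difference 1.28, adjusted p = 0.0347) was lost in 6 of the 8 fits that left out a mouse, with adjusted p up to 0.117.

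Of 21 stress and fetal genes of the cardiomyocyte that were tested, 5 rose and 0 fell, against 66 (0.789%) and 42 (0.502%) of all 8361 genes. The median of the list was 0.14, against -0.0027 for all genes, and 15 members had a positive sign. As with the other lists, its members were chosen with earlier results of these data known. Some are genes that the study reported higher, which favours such counts. Nppa, the precursor of atrial natriuretic peptide, was at 14.98, 15.01, 14.86 and 14.78 in cs-ERα-/- hearts, against 14.20, 13.22, 13.81 and 13.33 in WT hearts, a 2.40-fold rise (adjusted p = 0.000183). The knockout mice lay close together near the top of the scale while the WT mice spread over a whole log2 unit (SD 0.105 in cs-ERα-/-, 0.452 in WT). Nppb, the precursor of B-type natriuretic peptide and the next gene on chromosome 4, was 1.54-fold higher (14.78 to 14.98 in cs-ERα-/-, 13.92 to 14.59 in WT, adjusted p = 0.00781).
Ankrd1, found in the sarcomere and the nucleus and induced by stretch, was at 15.19, 15.02, 15.08 and 14.86 in cs-ERα-/- hearts and at 14.60, 14.17, 14.55 and 14.15 in WT hearts. At this bright probe the rise was 1.59-fold (adjusted p = 0.00153), and at its dimmer probe 2.35-fold (13.09, 13.22, 12.92 and 13.28 in cs-ERα-/-, 12.33, 11.67, 11.89 and 11.68 in WT, adjusted p = 1.81e-05). Mybpc2, a myosin-binding protein known from fast skeletal muscle, was at 8.87, 9.01, 9.06 and 8.74 in cs-ERα-/- hearts, against 7.97, 7.76, 7.60 and 7.98 in WT hearts (2.13-fold, adjusted p = 1.74e-05). Ccn2, a matricellular protein also called CTGF, was at 13.35, 13.36, 12.99 and 13.01 in cs-ERα-/- hearts, against 12.46, 12.004, 12.69 and 12.35 in WT hearts (1.74-fold, adjusted p = 0.0017). No values of the genotypes overlapped in these 5 genes. Their calls held without any 1 mouse, but robust moderation ended those of Nppa, Nppb and Ccn2, and moderation without the intensity trend those of Nppb, Ccn2 and the brighter Ankrd1 probe. Without cs-ERα-/- mouse 4 the median of the list was 0.0688.

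**Figure D2:**
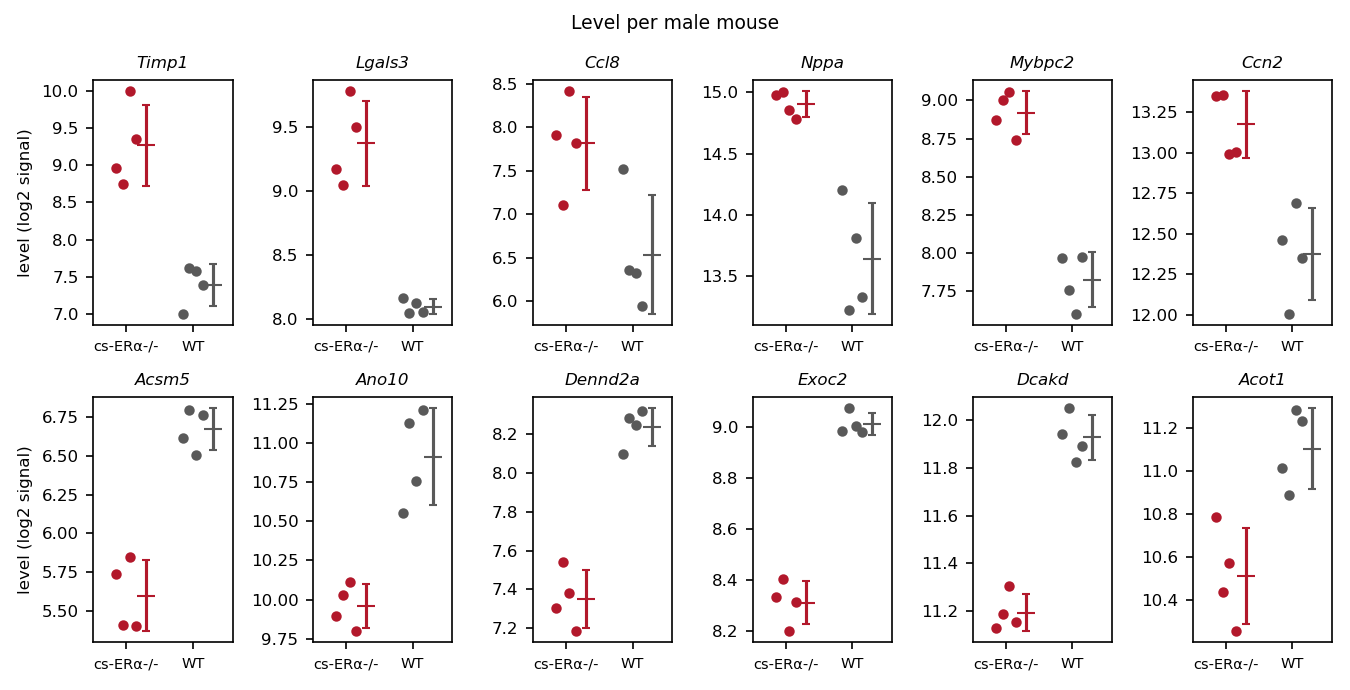
Log2 signal (vertical axes, scaled for each gene) of 6 genes called higher and 6 called lower, with 1 point per male mouse, cs-ERα-/- in red at the left and WT in grey at the right of each panel, and the mean with its SD (n = 4) as a bar beside the points. The genotypes overlap only in Ccl8, where WT mouse 1 reaches 7.52.

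Myh7, the slow myosin heavy chain of the fetal heart, was at 8.27, 8.91, 8.28 and 7.33 in cs-ERα-/- hearts, against 8.01, 7.04, 7.11 and 7.50 in WT hearts. The genotypes overlapped and the difference of 0.78 did not pass (standard error 0.25, adjusted p = 0.186 from limma). Of the fits that left out a mouse, it passed only without cs-ERα-/- mouse 4 (1.07, adjusted p = 0.0175). That mouse was the lowest of its group, so leaving it out must widen the difference. In another such fit the adjusted p reached 0.441. Atp2a1, a calcium pump known from fast muscle fibres, was at 6.81, 7.24, 7.26 and 5.70 in cs-ERα-/- and 5.75, 5.52, 6.04 and 5.79 in WT hearts (log2 difference 0.98, adjusted p = 0.0843), mouse 4 again being the lowest knockout. Without mouse 4 its difference was 1.32 (adjusted p = 0.000464), and in another fit that left out a mouse the adjusted p reached 0.246. Of 7 skeletal muscle markers tested, Mybpc2 rose and Myl1, an alkali light chain of fast muscle, fell by 0.43 (adjusted p = 0.0271), a call lost in 5 of the 8 fits that left out a mouse. Of the 7, 5 had a positive sign, 3 were higher and 1 lower at an unadjusted p under 0.05, and the median was 0.16. Tnni2, a troponin of fast muscle, differed by 0.50 (adjusted p = 0.186). The summed level of the list, in which Myl1 is the brightest, was 5198 to 5981 in cs-ERα-/- and 6120 to 6788 in WT hearts, and the fast-muscle genes Tnnt3 and Myh4 were detected on 0 of 8 arrays. Genes of the adult sarcomere and Z-disc had 0 calls among 16, with a median of 0.06 and 3 members higher at an unadjusted p under 0.05. Mybphl, a myosin-binding protein of atria and conduction tissue, rose by 0.91 (6.74, 6.67, 6.36 and 5.82 in cs-ERα-/-, 5.75, 5.09, 5.57 and 5.55 in WT, adjusted p = 0.0319), but its call was lost in 6 of the 8 fits that left out a mouse. Nppa was the only called gene of 11 atrial markers tested. It dominated their summed level (29563 to 34387 in cs-ERα-/-, 11091 to 20405 in WT), and the atrial genes Myl7, Sln and Bmp10 were detected on 0 of 8 arrays.

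Of 27 myeloid markers tested, chiefly of macrophages, 6 rose and 0 fell in cs-ERα-/- hearts, against 0.789% and 0.502% of all 8361 genes. A positive sign was found in 26, against 4111 of all genes, and the median was 0.32, against -0.0027. The list was drawn up with earlier results known and holds genes that the study reported higher, which favours such counts. The genotypes did not overlap in 12 of the 27, against 7.57% of all genes at their brightest probe. The 6 called higher were Lgals3, Cd52, Lyz1, Lyz2, Mrc1 and Coro1a. Fcna, a ficolin of macrophages that is not in the list, went the other way. It fell by 0.68 (adjusted p = 0.0211 from limma), a call lost in 4 of the 8 fits that left out a mouse. Cd52, a small glycoprotein of leukocytes, was at 8.95, 8.87, 9.58 and 9.28 in cs-ERα-/- hearts, against 8.06, 8.36, 8.56 and 8.43 in WT hearts (1.77-fold, adjusted p = 0.00602). Lyz2, a lysozyme of macrophages, was higher by 0.52 at the brighter and 0.69 at the dimmer of its probes (adjusted p = 0.00408 and 0.00231). Its neighbour Lyz1, nearly identical in sequence, was higher by 0.47, and the arrays may not separate the pair. Mrc1, the mannose receptor, was higher by 0.38 (9.79 to 10.07 in cs-ERα-/-, 9.34 to 9.68 in WT, adjusted p = 0.0396) and Coro1a, an actin-binding protein of leukocytes, by 0.48 at 1 of its 4 probes (adjusted p = 0.0452). Without any 1 mouse the calls of Lgals3, Cd52 and Lyz2 held, while those of Lyz1, Mrc1 and Coro1a were lost in 6, 6 and 7 of the 8 fits. In bulk RNA, more cells of a type and more RNA per cell cannot be told apart.

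Genes of MHC class II antigen presentation had the highest median of the lists with at least 8 genes tested, 0.42, and all 8 members were positive. Calls were made for 4 higher and 0 lower, against 0.789% and 0.502% of all 8361 genes. H2-Aa, H2-Ab1 and H2-DMb1, which encode chains of class II molecules and of their peptide loader, and Cd74, the invariant chain, rose by 0.51 to 0.59, H2-Ab1 at the dimmest of its 4 probes (adjusted p 0.0179 to 0.0376). H2-Aa was at 8.62, 8.27, 8.38 and 8.42 in cs-ERα-/- hearts, against 7.56, 8.0, 7.92 and 8.11 in WT hearts, with WT mouse 1 the lowest. The brightest H2-Ab1 probe differed by 0.40 and did not pass (adjusted p = 0.105). H2-Eb1, another class II chain, differed by 0.44 and did not pass (adjusted p = 0.101). The 4 calls depended on single mice: 0 were left without WT mouse 1, without WT mouse 2 or without cs-ERα-/- mouse 3, 1 without WT mouse 3 or without cs-ERα-/- mouse 1, and 2 without cs-ERα-/- mouse 4. In the model of all 16 arrays 0 of the 4 passed.

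The size of these shifts differed between mice. Taking for each mouse the median over the members of a list of the difference from the WT mean, the myeloid list stood at 0.324, 0.152, 0.498 and 0.296 in cs-ERα-/- mice 1 to 4, against -0.072, 0.003, 0.131 and -0.044 in WT mice 1 to 4. The MHC class II list stood at 0.440, 0.185, 0.677 and 0.412 in cs-ERα-/- mice, against -0.251, 0.005, 0.026 and 0.229 in WT mice, so that cs-ERα-/- mouse 2 lay below WT mouse 4. In both lists mouse 3 was the highest and mouse 2 the lowest of the knockouts. Stress genes had another order, with 0.070, 0.204, 0.079 and 0.282 in cs-ERα-/- mice, against 0.077, -0.030, -0.070 and -0.006 in WT mice. Over the 100 genes called at their brightest probe, chosen by these same values, the median over 62 genes called higher was 0.48 to 0.57 in the 4 cs-ERα-/- mice, and over 38 called lower -0.54 to -0.43.

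**Figure D3:**
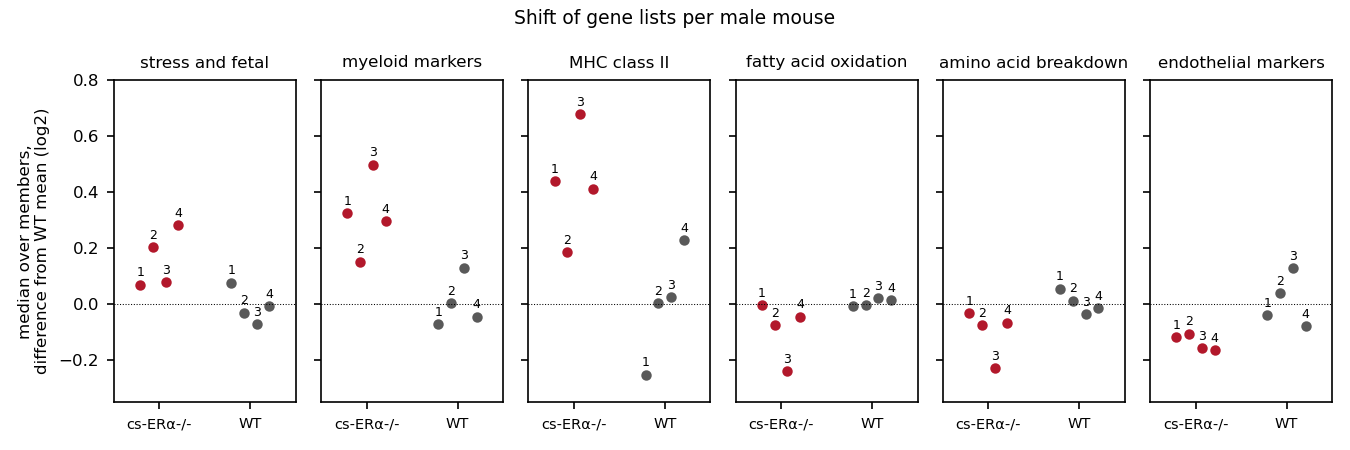
For 6 gene lists, the median over the tested members of the difference from the WT mean (log2, vertical axis) in each male mouse, numbered 1 to 4, with cs-ERα-/- in red at the left and WT in grey at the right. Mouse 3 of the knockouts is highest for myeloid markers (0.498) and MHC class II genes (0.677) and lowest for fatty acid oxidation (-0.238).

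Of 22 acute-phase genes 2 rose and 0 fell, against 0.789% and 0.502% of all 8361 genes. A positive sign was found in 16, and 9 were higher and 1 lower at an unadjusted p under 0.05. Lcn2, an iron-scavenging protein of inflammation, was at 7.25, 6.90, 7.53 and 7.42 in cs-ERα-/- hearts, against 6.00, 6.45, 6.50 and 6.36 in WT hearts (1.93-fold, adjusted p = 0.00283). Serpina3n, a protease inhibitor, was at 9.27, 9.24, 10.24 and 9.71 in cs-ERα-/- hearts, against 8.62, 8.94, 8.54 and 8.61 in WT hearts (1.92-fold, adjusted p = 0.00878). Again mouse 3 was the highest in both genes, and no values overlapped. Both calls held without any 1 mouse. That of Serpina3n was lost in 5 other settings, the model of all 16 arrays among them, with adjusted p up to 0.411. That of Lcn2 was lost in 2, both ordinary linear models. Of 29 genes of matrix, metalloproteinases and their inhibitors, Timp1 and Ccn5, a matricellular protein known as an estrogen-responsive gene in breast cells, rose and 0 fell, and the median was 0.04. Ccn5 was higher by 0.59 (8.32 to 8.94 in cs-ERα-/-, 7.84 to 8.22 in WT, adjusted p = 0.0211). Tnc, a matrix glycoprotein of injured tissue, was detected on 4 of 4 cs-ERα-/- arrays (5.54 to 6.48) and 0 of 4 WT arrays (4.91 to 5.43) and did not pass (adjusted p = 0.0666), and no fold is given against the WT background level. Fibroblast markers had 0 calls among 18, a median of 0.13, 16 positive signs and 6 members higher at an unadjusted p under 0.05, with a summed level of 29728 to 35732 in cs-ERα-/- and 28192 to 31237 in WT hearts. Endothelial markers had 0 calls among 21, a median of -0.11 and 20 negative signs, with 4 members lower at an unadjusted p under 0.05, and their summed level was 39327 to 41055 in cs-ERα-/- and 41289 to 46362 in WT hearts. Of the neutrophil and lymphocyte markers only 3 of 20 were tested, with 0 calls. Complement (8 tested) and interferon-responsive genes (22 tested) had 0 calls. At an unadjusted p under 0.05, 3 complement genes were higher and 0 lower, and 3 interferon-responsive genes were higher and 1, Rsad2, lower, with 10 of the 22 negative and a median of 0.0091. Red blood cell markers had 0 calls among 4, all 4 negative, with a median of -0.25 and 2 members lower at an unadjusted p under 0.05, and a summed level of 43290 to 48206 in cs-ERα-/- and 47576 to 53933 in WT hearts. In females their median was 0.34. The part of a change in cell makeup in these results was not tested.

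**Figure D4:**
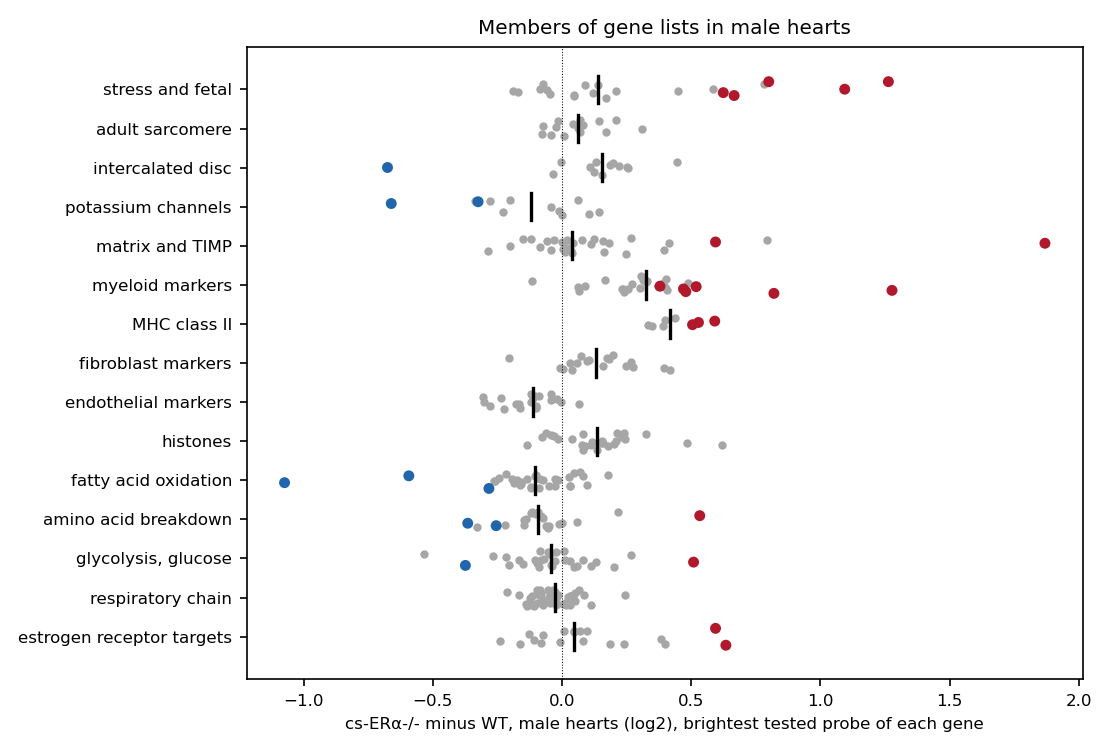
Difference of cs-ERα-/- minus WT in male hearts (log2, horizontal axis) for the members of 15 gene lists, 1 point per gene at its brightest tested probe, with the median of each list as a black bar. Red and blue points are called higher and lower, and grey points did not pass. The myeloid (0.32) and MHC class II (0.42) medians lie to the right of 0, and those of fatty acid oxidation (-0.10) and endothelial markers (-0.11) to the left.

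The largest fall of a named gene was in fatty acid metabolism. Acsm5, a mitochondrial enzyme that couples medium-chain fatty acids to coenzyme A, was at 5.74, 5.41, 5.85 and 5.40 in cs-ERα-/- hearts, against 6.62, 6.80, 6.51 and 6.76 in WT hearts. It stood at 0.475 times the WT level (log2 difference -1.07, standard error 0.14, adjusted p = 0.000565) and was called without each mouse in turn. Of 33 genes of fatty acid oxidation tested, 3 fell and 0 rose, against 0.502% and 0.789% of all 8361 genes. The median was -0.10, against -0.0027 for all genes. Negative signs were found in 25 members, against 4250 of all genes. This list too holds genes that the study reported lower, which favours such counts. The other calls were the acyl-CoA thioesterases Acot1 and Acot7, which release free fatty acids from coenzyme A. Acot1 was at 10.79, 10.44, 10.57 and 10.26 in cs-ERα-/- hearts and at 11.01, 10.89, 11.28 and 11.24 in WT hearts (0.663 times the WT level, adjusted p = 0.00845), and its other probe did not pass. The call of Acot1 held without any 1 mouse but was lost in 4 other settings, the model of all 16 arrays among them. Acot7 fell by 0.28 (11.92 to 11.99 in cs-ERα-/-, against 12.15 to 12.35 in WT, adjusted p = 0.0232) at 1 of its 4 probes, a call lost in 5 of the 8 fits that left out a mouse. Acads, the short-chain acyl-CoA dehydrogenase, differed by -0.26 and did not pass (adjusted p = 0.0631). Without cs-ERα-/- mouse 3 the median of the list was -0.0469, and that mouse had the lowest value (-0.238, against -0.074 to -0.004 in the other knockouts).

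In glucose metabolism 1 of 31 genes rose and 1 fell. The shares over all 8361 genes, for this and the lists below, were 0.789% called higher and 0.502% lower. Pfkp, the platelet type of phosphofructokinase, was higher by 0.51 (9.08 to 9.68 in cs-ERα-/-, 8.82 to 8.96 in WT, adjusted p = 0.0211), and Fbp2, the muscle fructose bisphosphatase that runs the opposite reaction, fell by 0.37 (adjusted p = 0.0333). Pdk2, a kinase that restrains pyruvate dehydrogenase, differed by -0.27 without passing (adjusted p = 0.0875). Of 21 genes of amino acid breakdown, Bckdha, a subunit of branched-chain keto acid dehydrogenase, and Fah, the last enzyme of tyrosine breakdown, fell by 0.26 and 0.36, and Abat, which breaks down GABA, rose by 0.53 (adjusted p 0.0278 to 0.0446). The fatty acid desaturases Scd4 and Fads1 rose by 0.59 and 0.34 among 24 lipid synthesis genes, the call of Fads1 at the edge of the threshold. Bckdha lost its call in 8 of 8 fits that left out a mouse. Abat, Fah, Fads1, Fbp2 and Scd4 lost theirs in 5 or 6, and Pfkp in 4. The 45 genes of the respiratory chain and ATP synthase and the 17 of the citric acid cycle had 0 calls, with 5 and 1 lower and 1 and 0 higher at an unadjusted p under 0.05. Their summed level was 991703 to 1018332 in cs-ERα-/- and 1016967 to 1050024 in WT hearts for the respiratory chain. Ndufv3, an accessory subunit of complex I that is not in the list, was lower by 0.26 at the edge of the threshold, and its call was lost whichever mouse was left out.

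Among genes of the exocyst, Rab GTPases and vesicles, 2 of 29 fell and 1 rose, against 0.502% and 0.789% of all genes tested. The median was 0.05. Dennd2a, an activator of Rab GTPases, was at 7.30, 7.54, 7.38 and 7.18 in cs-ERα-/- hearts, against 8.10, 8.28, 8.25 and 8.32 in WT hearts (0.542 times the WT level, adjusted p = 9.25e-05). Exoc2, a subunit of the exocyst that tethers vesicles to the plasma membrane, was at 8.33, 8.40, 8.20 and 8.31 in cs-ERα-/- hearts, against 8.98, 9.07, 9.01 and 8.98 in WT hearts (0.616 times the WT level, adjusted p = 8.66e-05). Both genes had SDs of at most 0.15 in either genotype. Rab31, a Rab GTPase, rose by 0.33 (adjusted p = 0.0435), a call lost in 6 of the 8 fits that left out a mouse. Ano10, a membrane protein of the anoctamin family, was at 9.90, 10.03, 10.11 and 9.80 in cs-ERα-/- hearts, against 10.55, 11.12, 10.76 and 11.21 in WT hearts (0.518 times the WT level, adjusted p = 0.000296).
At the intercalated disc, which joins cardiomyocytes end to end, 1 of 13 genes fell and 1 rose, while 8 were higher at an unadjusted p under 0.05 and the median was 0.15. Ctnna3, an α-catenin of the disc, was at 6.08, 6.39, 6.20 and 6.29 in cs-ERα-/- hearts, against 6.81, 6.76, 7.04 and 7.05 in WT hearts (0.626 times the WT level, adjusted p = 0.00979). Pkp2, the plakophilin of its desmosomes, was higher by 0.32 at its dimmest probe (adjusted p = 0.0318) and by 0.15 and 0.18 at 2 brighter probes, which did not pass, and its call was lost in 5 of the 8 fits that left out a mouse. Of 12 potassium channel genes 2 fell and 0 rose, against 0.502% and 0.789% of all genes tested. Kcnv2, a modulatory subunit of voltage-gated channels, was at 7.45, 7.24, 7.66 and 7.84 in cs-ERα-/- hearts, against 8.18, 8.13, 8.25 and 8.28 in WT hearts (0.632 times the WT level, adjusted p = 0.00749), and Kcnk3, the background channel TASK-1, fell by 0.33 (adjusted p = 0.0347), a call lost in 6 of the 8 fits that left out a mouse. Among 16 genes of calcium release and uptake only Asph was called, at 1 dim probe detected on 4 of 4 cs-ERα-/- and 0 of 4 WT arrays (5.56 to 5.74 in cs-ERα-/-, 4.76 to 5.09 in WT, not well above background there, so that no fold is given). Its call was lost in 7 of the 8 fits that left out a mouse, and its brightest probe differed by -0.25 (adjusted p = 0.139). Asph encodes a hydroxylase and, from other transcripts, the calcium release protein junctin, and its probes disagree in sign. Over the 16 genes, 10 had a negative sign and 6 a positive one. At an unadjusted p under 0.05, 4 were lower and 1 higher.

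Among other genes called with the largest changes, Dcakd, which holds a dephospho-CoA kinase domain, had the smallest adjusted p of the named genes. It was at 11.13, 11.19, 11.30 and 11.16 in cs-ERα-/- hearts, against 11.94, 12.05, 11.82 and 11.89 in WT hearts (0.603 times the WT level, adjusted p = 1.4e-05). Its neighbour on chromosome 11, Higd1b, a marker of pericytes, fell by 0.40 (adjusted p = 0.0354), while Acta2, the actin of smooth muscle, rose by 0.44 (adjusted p = 0.0333). Higd1b and Acta2 were the only calls among 12 smooth muscle and pericyte markers tested. The signs of the 12 were split, 5 positive and 7 negative, with a median of -0.02. At an unadjusted p under 0.05, 2 were higher and 3 lower. Their summed level was 30248 to 35690 in cs-ERα-/- and 28332 to 30567 in WT hearts. Poln, a DNA polymerase, fell by 0.92 (adjusted p = 0.0241) at levels near background and was detected on 2 of 4 cs-ERα-/- and 4 of 4 WT arrays. Tac1, the precursor of substance P, fell by 0.73 and Tmem164 by 0.63 (adjusted p = 0.0298 and 0.0146). Ndrg4, a gene of heart and brain, rose by 0.89, and Fstl4, a follistatin-like protein, by 0.81 (adjusted p = 0.015 and 0.00539). Leaving out 1 mouse at a time ended the calls of Higd1b and Tac1 in 6, of Acta2 in 5, of Poln in 4 and of Ndrg4 and Tmem164 in 2 of the 8 fits. Tbx20, a transcription factor of cardiomyocytes, was higher by 0.46 at the edge of the threshold, and 7 of 8 fits that left out a mouse ended its call.

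Phlda3, a p53 target that restrains Akt, was at 8.51, 8.69, 8.68 and 8.38 in cs-ERα-/- hearts, against 7.86, 7.86, 8.09 and 7.86 in WT hearts (1.57-fold, adjusted p = 0.0017), and its other probe rose 1.70-fold. Of 20 p53 targets it rose together with Ephx1, an epoxide hydrolase (0.32, adjusted p = 0.044), and 0 fell. The shares over all 8361 genes were 0.789% called higher and 0.502% lower. Ephx1 lost its call in 7 of the 8 fits that left out a mouse and in 7 other settings, with adjusted p up to 0.991. Of 19 genes that other cells regulate through the estrogen receptor, Ccn5 and Bcl2, a brake on apoptosis, rose and 0 fell, and the median was 0.05. Bcl2 was higher by 0.63 at 1 of its 3 probes (adjusted p = 0.0319). The call of Ccn5 was lost in 5 and that of Bcl2 in 6 of the 8 fits that left out a mouse. Among 16 genes of steroid metabolism and transport, only Slc51a was called, a subunit of a bile acid and steroid transporter. It was at 6.40, 6.14, 6.25 and 6.44 in cs-ERα-/- hearts, against 5.39, 5.62, 5.66 and 5.51 in WT hearts (1.70-fold, adjusted p = 0.00809 from limma). The WT values lie near background, with detection on 3 of 4 WT arrays. The log2 difference ran from 0.503 to 1.1 over the settings, so its size is uncertain. P4hb, a disulfide isomerase, was the only call among 21 genes of the unfolded protein response (0.32, adjusted p = 0.0136). Its call was lost in 3 of the 8 fits that left out a mouse and in 5 other settings, with adjusted p up to 0.999. Notch genes (22 tested), nitric oxide and cGMP genes (14) and antioxidant genes (28) had 0 calls, with 1, 0 and 4 members at an unadjusted p under 0.05. Histone genes (27) also had 0 calls, with 10 members higher and 0 lower at an unadjusted p under 0.05 and a median of 0.14. Of all 8361 genes, 560 were higher and 498 lower at that threshold. Among the other lists, 1 of 29 insulin and 1 of 22 Wnt genes rose and 1 of each fell, and clock (16 tested), immediate early (16) and lysosome genes (26) had 0 calls, with 1, 2 and 7 members at an unadjusted p under 0.05.

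Called genes lay on every chromosome with more than 2 genes tested, between 0.515% of genes tested on chromosome 18 and 2.33% on chromosome 19. In all, 5 pairs of called genes lay within 3 places of each other in the order of genes tested. Both genes moved the same way in each of these pairs. These were Nppb and Nppa on chromosome 4, Lyz2 and Lyz1 on 10, H2-Ab1 and H2-Aa on 17, Higd1b and Dcakd on 11, and Parp12 and Dennd2a on 6. The first 3 pairs named are of related genes, and how many such pairs calls placed at random would give was not worked out.

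The knockout effect in males was set beside that in the 4 cs-ERα-/- and 4 WT females, which share no array with it. Of the 126 probes called in males, 125 were measured in females. There 118 had the same sign (94.4%), against 64.2% of all probes tested in both sexes. Females had 68 calls of 12008 probes (0.566%), 57 higher (0.475%) and 11 lower (0.0916%). Called in both sexes in the same direction were 32 probes, 25.4% of the male and 47.1% of the female calls, and 0 were called in opposite directions. Over all 11630 probes tested in both, the 2 sets of differences correlated at 0.466, where probes of a gene and probes of similar level are not independent. The median over probes called higher in males was 0.52 in males and 0.35 in females, and over those called lower -0.49 in males and -0.23 in females, but the probes were called in males, which favours larger values there.
The test of the difference itself, the interaction of genotype and sex, called 0 of 12246 probes in limma, with 456 (3.72%) at an unadjusted p under 0.05, and 0 in each other setting tried. Ttll1, an enzyme that adds glutamate chains to tubulin, had the smallest p. At 1 of its probes it was lower by 0.70 in male cs-ERα-/- hearts and differed by 0.01 in females (interaction -0.71, standard error 0.16, adjusted p = 0.757). Hbb-bt, a β-globin of red blood cells, had the next p, with -0.38 in males and 0.43 in females, neither called (interaction -0.80, standard error 0.18, adjusted p = 0.757). Fcna, a ficolin of macrophages, fell by 0.68 in males (adjusted p = 0.0211) and differed by 0.19 in females (interaction -0.87, adjusted p = 0.757). Atp2a1, not called in males, rose by 1.80 in females (adjusted p = 0.000311; interaction -0.80, adjusted p = 0.999). Myh7 differed by 0.78 in males and -0.63 in females, with neither called (interaction 1.41, standard error 0.36, adjusted p = 0.877). Acsm5 differed by -1.07 in males and -0.23 in females (interaction -0.86, standard error 0.25, adjusted p = 0.999). In all, 7 probes called in males had the opposite sign in females, those of Ttll1, Fcna, Slc26a6, Fam89b, P2ry1, Ndufv3 and Tbx20, at female differences of -0.07 to 0.19.

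**Figure D5:**
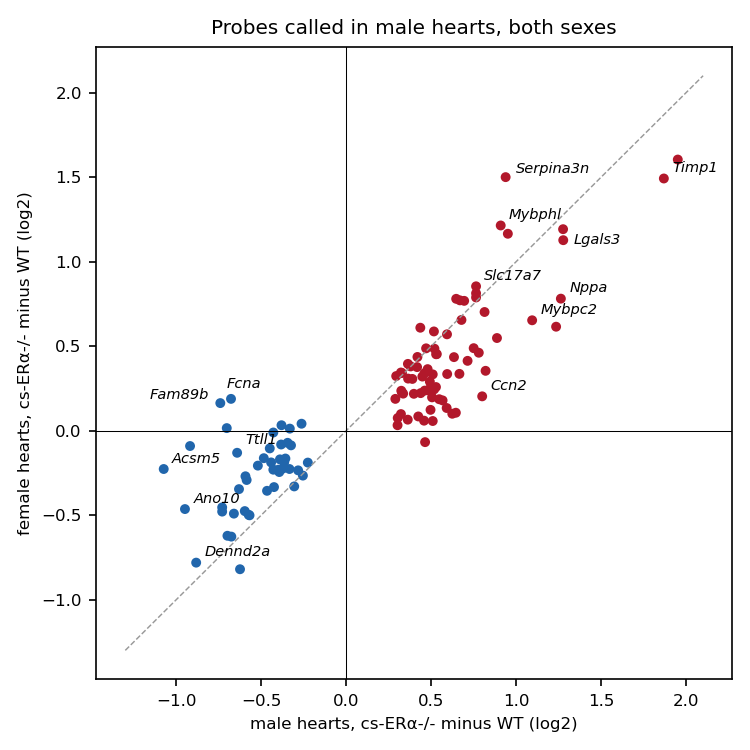
Difference of cs-ERα-/- minus WT (log2) in male hearts on the horizontal and in female hearts on the vertical axis, for the named probes called in male hearts and measured in both sexes, red where higher and blue where lower in males. The dashed line marks equal differences. Timp1 lies far out in both sexes, Serpina3n lies higher in females (1.5, against 0.94 in males), and Ttll1 and Fcna lie near or above 0 in females.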

How the data were processed

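Illumina MouseRef-8 arrays, 1 per heart, cover 16 mice in 4 groups of 4, formed from the labelled sex and genotype. The authors read the scans into Genome Studio and averaged the beads of each probe. The deposited non-normalized values are intensities after background subtraction, on a linear scale, and the deposited p-value beside each is a detection p against negative control beads. The authors also deposited normalized intensities (cubic spline, linear scale). The study divided its arrays over 2 BeadChips, but the labels do not say which, so no chip term was fitted and its part was not tested. Precision is limited by how many arrays each group has.

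The signals of the 8 male arrays were corrected with neqc of limma 3.58.1 (offset 16, control mean and spread inferred from the detection p), quantile-normalized and log2-transformed in R 4.3.3. Probes detected (p under 0.05) on 3 or 4 arrays of a genotype entered a linear model of the group means, with variances moderated with an intensity trend, with Benjamini-Hochberg adjustment over all probes tested. The study's methods fit a factorial model to 16 arrays, which was an alternative here and, over all 16, gave the interaction. Simulated data with known changes were used to test the fit. Gene symbols came from the platform annotation, updated through the GRCm38.p6 gene table (23978 of 25697 probes have 1 symbol), and a gene is given by its brightest tested probe unless another is named. A list is described by its calls and its median. Named genes are the 12 largest called rises and falls, up to 4 members of each list with the smallest p, the 6 smallest interaction p-values each way, genes that the study names, and all members of small classes. Members, lists and genes were chosen with earlier results of these data known. Alternatives were other values, background corrections, normalizations, filters, moderations, array weights, the replicate number as a block and each array left out. The BeadChip of each array, the physiology and qRT-PCR data were not analysed here, and some genes are not reported here. Figures were drawn with matplotlib 3.10.9.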

Additional observations from a re-analysis of the deposited data

Results flagged for a closer look

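Among 66 named genes, 4 of 132 groups of 4 mice held a mouse set apart from its group, where chance flags about 1 in 20 groups. In cs-ERα-/- hearts these were mouse 2 for Kcnk3, a background potassium channel, highest at 10.68 against 10.42 to 10.44 in the other knockouts, and mouse 4 for P4hb, a disulfide isomerase, lowest at 12.82 against 13.03 to 13.07. In WT hearts they were mouse 3 for Phlda3, highest at 8.09 while the others were at 7.86, and mouse 1 for Ephx1, lowest at 9.79 against 10.03 to 10.06. In each of the 4 genes the genotypes did not overlap, the mouse set apart included.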

How the results depend on the processing

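Against 126 called probes (77 higher, 49 lower), median scaling over all probes gave 62 (36 and 26), moderation without the intensity trend 39 (21 and 18), an ordinary linear model 7 (2 and 5), an ordinary linear model on the authors' normalized values of all 16 arrays 36 (23 and 13) and an adjusted p under 0.1 223 (135 and 88). Called genes in any list numbered 47, and under these settings 26, 15, 1, 13 and 71. Leaving out 1 array gave 49 to 111 called probes, 29 to 72 higher and 20 to 41 lower, with 22 to 40 list genes and 1118 to 1347 probes whose genotypes did not overlap. That count was 832 with all arrays and 348 with median scaling over all probes, a median that lies near background and moved the median difference of all probes to -0.0404. Scaling to the median of the tested probes, chosen after seeing the data, gave 123 calls, of which 52% were higher against 61.1%. With the replicate number as a block, 149 probes were called, 115 of them shared with the 126. The same-numbered mice deviated together with correlations of -0.026 to 0.195, so the numbers were not taken as pairs. The other settings gave 101 to 135 calls. The interaction had 0 calls in each of its settings. None of 66 named genes changed sign in any setting, but they were chosen largely by their differences in the same arrays, which makes such a change unlikely. An arm in place of the whole estrogen response element was in 33.3% of called promoters.

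With 4 mice a group, 43 of the 126 called probes passed in all 8 fits that left out an array. Nppa and Ankrd1 lie near the top of the scale, and genes such as Poln, Acsm5, Slc51a and Mybphl near background, where the arrays limit how well a difference can be sized.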
